A study of Mus musculus with 12 samples.

Results

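The response of regulatory T cells (Treg) to anti-CD3 and anti-CD28 antibodies was set against the response of effector T cells (Teff) to the same antibodies. It was read from 8 of the 12 arrays of the series, in 4 groups of 2 arrays: anti-CD3-CD28 Treg (labelled a-CD3-CD28), control Treg, anti-CD3-CD28 Teff and control Teff. For each of 22180 genes the measure was the Treg response (anti-CD3-CD28 Treg minus control Treg) minus the Teff response (anti-CD3-CD28 Teff minus control Teff), called below the difference of responses. Genes were then sorted by whether they changed in Treg cells only, in Teff cells only, in both in 1 direction, or in opposite directions.

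All samples came from spleens of 8-week-old C57BL/6-Foxp3.GFP mice, whose GFP reporter marks Foxp3-expressing cells. For the anti-CD3-CD28 groups, total CD4+ cells were kept for 3 days with 2 µg/ml of each antibody and then sorted into CD4+Foxp3+ Treg and CD4+Foxp3- Teff cells. Both cell types therefore shared a culture, and membership was set by Foxp3 after it. Control cells were sorted fresh and untreated, so culture, time and antibodies change together in both responses. No label says that the 2 arrays of a group came from separate animals or cultures, so the p-values rest on the spread between samples of a group, which may be technical only, and the number of arrays limits their precision.

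Anti-CD3 engages the T cell receptor complex and anti-CD28 the main costimulatory receptor, and together they drive naive T cells into growth, division and cytokine production. Treg cells depend on the transcription factor Foxp3, and before any stimulation in culture they hold high levels of the interleukin-2 receptor alpha chain and of CTLA-4, molecules that conventional T cells acquire on activation. Treg cells make little interleukin-2 and restrain other T cells.

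Values are log2 intensities. They carry no detection call, and a group mean below the lowest median of the 8 arrays (4.87) may be background, so changes that start or end at such a level are read as lower bounds. Foxp3, which defined the sort, read 11.22 and 11.02 in anti-CD3-CD28 Treg, 10.37 and 10.36 in control Treg, 5.58 and 5.72 in anti-CD3-CD28 Teff and 5.66 and 5.66 in control Teff cells. The T cell markers Cd3e, Cd4 and Cd5 had group means between 9.4 and 11.9 in all 4 groups. In bulk samples such as these, fewer cells of a type and less RNA per cell cannot be told apart.

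Across genes the replicates of the 4 groups correlated at 0.9838 to 0.9939, and the OX40L-JAG1 Teff arrays, which are not used here, at 0.8806, so the fit used the 8 arrays and counts from all 12 are given beside the leading ones. The spread of values over genes differed between groups. Its SD was 2.19 on both anti-CD3-CD28 Treg arrays, 2.04 and 2.01 in control Treg, 1.95 and 2.01 in anti-CD3-CD28 Teff, and 2.10 and 2.13 in control Teff cells. The difference of responses therefore moved with a gene's level. Over 5 equal bins of 4436 genes its median was -0.32 in the dimmest and 0.69 in the brightest bin, and -0.03 and 0.16 after quantile normalization, which gives all arrays 1 distribution. Values after quantile normalization are given where they bear on a call or a direction.

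**Figure D1:**
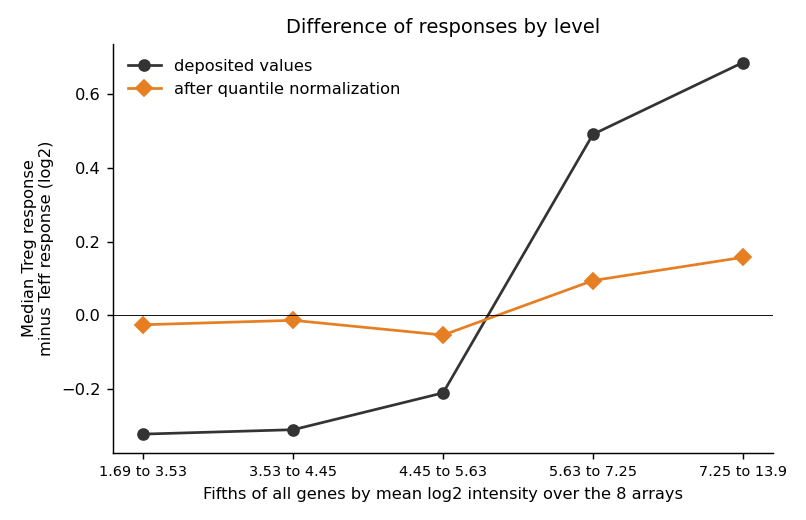
Median difference of responses (Treg response minus Teff response, log2) in 5 equal bins of genes by their mean log2 intensity over the 8 arrays, with deposited values (circles) and after quantile normalization (diamonds). The deposited medians run between -0.32 in the dimmest bin and 0.69 in the brightest, and the normalized ones between -0.05 and 0.16.

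The responses differed at 7022 genes (31.7% of all tested; limma, Benjamini-Hochberg adjusted p under 0.05, two-sided). The difference was positive at 4513 genes (20.3%) and negative at 2509 (11.3%), so 64.3% of calls were positive. With all 12 arrays in the fit, 2904 genes were called (13.1%), of which 2251 were positive (10.1%) and 653 negative (2.94%). After quantile normalization 3972 were called (17.9%), of which 2173 were positive (9.80%) and 1799 negative (8.11%), so 54.7% of calls were positive. The 2178 genes called in 1 direction in all of these fits were 1626 positive and 552 negative. Leaving out the Control Teff array B lowered the count to 4449. In simulated data 100 of 22180 genes differed by 2 on the log2 scale, 100 differed by 1 and the rest not at all. Of these, 86 and 18 were called, and 10 unchanged genes were called as well. With so few changed genes the adjustment is stricter than in the real fit, so these shares do not give its sensitivity.

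In Treg cells 4824 genes changed (21.7%), of which 3292 rose (14.8%) and 1532 fell (6.91%), and in Teff cells 6506 (29.3%), of which 2806 rose (12.7%) and 3700 fell (16.7%). Without an anti-CD3-CD28 Treg array the Treg count was 2741 (array 1) or 2718 (array B). Without a Control Teff array the Teff count was 4136 (array 1) or 3912 (array B). The 1310 genes that changed in the same direction in both were 27.2% of the Treg and 20.1% of the Teff calls, and the 1033 that changed in opposite directions were 21.4% and 15.9%. Across the 22180 genes, which are not independent replicates, the Treg and Teff responses, which share no array, had a Pearson correlation of 0.154 and a Spearman correlation of -0.0974.

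Sorted by class, 1717 genes changed in Treg cells only (7.74% of all tested; 1199 up, 5.41%, and 518 down, 2.34%) and 2961 in Teff cells only (13.3%; 947 up, 4.27%, and 2014 down, 9.08%). "Only" means that the response in the other cell type was not called and that the difference of responses was. Another 253 changed in both with the larger change in Treg cells (1.14%; 233 up, 1.05%, and 20 down, 0.0902%), and 187 in both with the larger change in Teff cells (0.843%; 89 up, 0.401%, and 98 down, 0.442%). Of the 1033 genes with opposite directions (4.66%), 677 rose in Treg and fell in Teff cells (3.05%) and 356 did the reverse (1.61%). A further 870 were shared, with both responses called in 1 direction and no call on their difference (3.92%; 624 up, 2.81%, and 246 down, 1.11%). Genes kept the same class with 8 arrays, with 12 and after quantile normalization in 337 cases of Treg only, 719 of Teff only, 51 and 51 of the classes larger in Treg and in Teff cells, 192 of opposite and 363 of shared. Single arrays moved the class counts: without the anti-CD3-CD28 Treg array B there were 887 Treg only and 449 opposite genes, and without the Control Teff array B 1690 Teff only and 494 opposite genes.

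**Figure D2:**
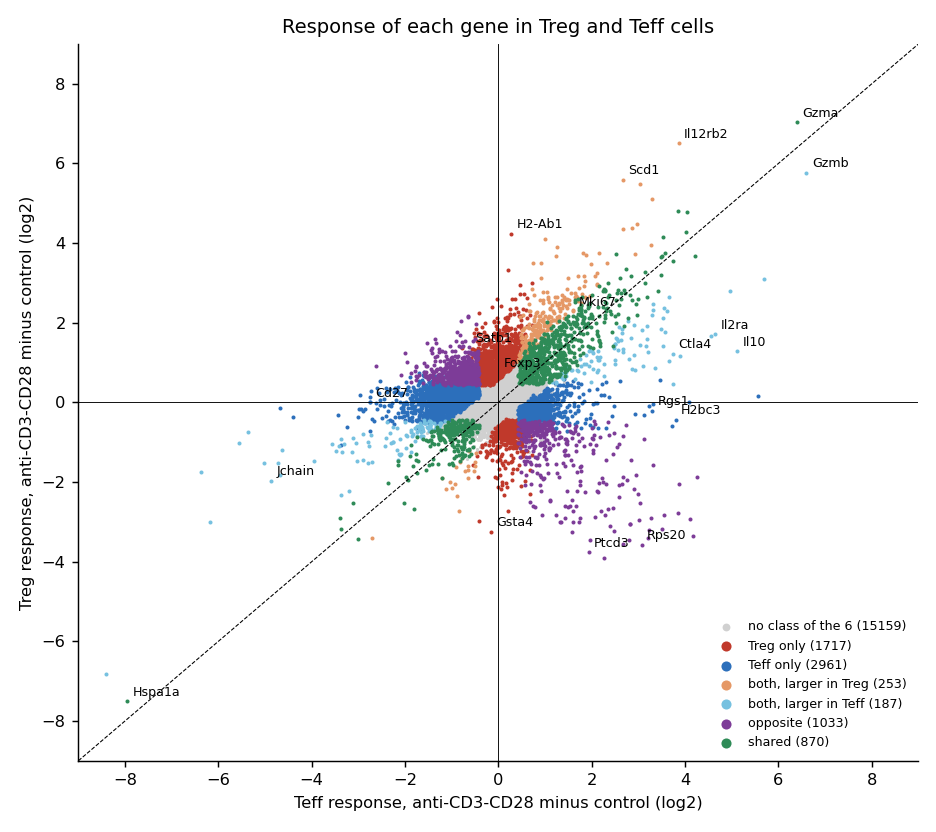
Response of each of 22180 genes in Treg cells (vertical) and Teff cells (horizontal), each anti-CD3-CD28 minus control on the log2 scale, coloured by class; the dashed line marks equal responses. Gzma lies at the upper right with 7.04 in Treg and 6.39 in Teff cells, Il10 and Il2ra below the line, Il12rb2 and Scd1 above it, and the genes that fell in Treg and rose in Teff cells at the lower right.

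The same difference can be read as the change of the gap between Treg and Teff cells. The cell types differed at 6507 genes after anti-CD3-CD28 (29.3%; 4107 higher in Treg cells, 18.5%, and 2400 lower, 10.8%) and at 3280 in control cells (14.8%; 1264 higher in Treg cells, 5.70%, and 2016 lower, 9.09%). Without an anti-CD3-CD28 Treg array the first count was 3466 (array 1) or 3280 (array B). Without a Control Teff array the control count was 1112 (array 1) or 1049 (array B), and without the Control Treg array 1 or B it was 2171 or 1880. Among the 7022 genes, 3387 had a called gap after anti-CD3-CD28 and none called in control cells, 1216 the reverse, and 1214 a called gap of opposite sign in the 2 states.

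Several genes of Treg identity rose in both cell types but more in Teff cells, which started low. Il2ra, the interleukin-2 receptor alpha chain, read 12.86 and 12.99 in anti-CD3-CD28 Treg, against 11.19 and 11.24 in control Treg cells, and 11.36 and 11.47 in anti-CD3-CD28 Teff, against 6.64 and 6.90 in control Teff cells. After the antibodies Teff cells thus read at about the level of fresh Treg cells, and the treated and control arrays did not overlap in either cell type. Il2ra rose by 1.71 in Treg and by 4.64 in Teff cells, a difference of -2.94 ± 0.21 (SE, adjusted p = 2e-05). The gap between the cell types was 1.51 after anti-CD3-CD28 and 4.45 in control cells.

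Ctla4, an inhibitory receptor that competes with CD28 for its ligands, read 10.74 and 10.76 in anti-CD3-CD28 Treg, against 9.57 and 9.47 in control Treg cells, and 9.77 and 9.84 in anti-CD3-CD28 Teff, against 6.15 and 5.99 in control Teff cells. All 4 groups were apart from each other. Its difference of responses was -2.51 ± 0.20 (adjusted p = 3.73e-05). Tnfrsf4, which encodes the costimulatory receptor OX40, followed the same order with -1.93 ± 0.19 (adjusted p = 0.000162), as did the chemokine receptor Ccr8 with -1.74 ± 0.22 (adjusted p = 0.000548) and Lrrc32, the docking receptor of latent TGF-beta, with -2.10. Rgs1, a regulator of G-protein signalling, was a Teff only gene: it read 9.98 and 9.90 in anti-CD3-CD28 Treg, against 10.14 and 10.17 in control Treg cells, and 9.91 and 10.07 in anti-CD3-CD28 Teff, against 6.72 and 6.65 in control Teff cells. A gap of 3.47 in control cells was -0.04 after anti-CD3-CD28, and the difference of responses was -3.51 ± 0.20 (adjusted p = 3.8e-06).

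Of 29 measured Treg identity genes, the difference was negative at 12 and positive at 6 (9 and 2 with 12 arrays, 15 and 3 after quantile normalization), with a median of -0.58, against -0.08 over all genes. In Treg cells 17 of them rose and 4 fell, and in Teff cells 19 rose and 4 fell. The median gap was 1.79 after anti-CD3-CD28 and 2.64 in control cells, and it was smaller after the antibodies at 21 of the 29. Not every member narrowed. Foxp3 rose by 0.75 in Treg cells and moved by -0.01 in Teff cells, a difference of 0.77 ± 0.20 (adjusted p = 0.0183). That call was lost with 12 arrays (adjusted p = 0.109), with the level trend removed by loess (0.15, adjusted p = 0.656) and without either Control Teff array (adjusted p = 0.062 and 0.065) or the anti-CD3-CD28 Treg array 1 (0.0775). Gpr83, an orphan receptor of Treg cells, had a difference of 1.94, with group means of 9.1 in anti-CD3-CD28 Treg, 9.2 in control Treg, 4.3 in anti-CD3-CD28 Teff and 6.4 in control Teff cells.

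Cd83, an activation molecule of the immunoglobulin superfamily, fell in Treg cells only. It read 6.82 and 7.01 in anti-CD3-CD28 Treg, against 8.96 and 9.02 in control Treg cells, and 6.19 and 6.26 in anti-CD3-CD28 Teff, against 6.18 and 6.10 in control Teff cells. The Teff groups were within 0.2 of each other and the Treg groups were well apart, with a difference of responses of -2.17 ± 0.20 (adjusted p = 0.000104). Klrg1, a receptor of terminally differentiated lymphocytes, fell in Treg and rose in Teff cells (-1.78).

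**Figure D3:**
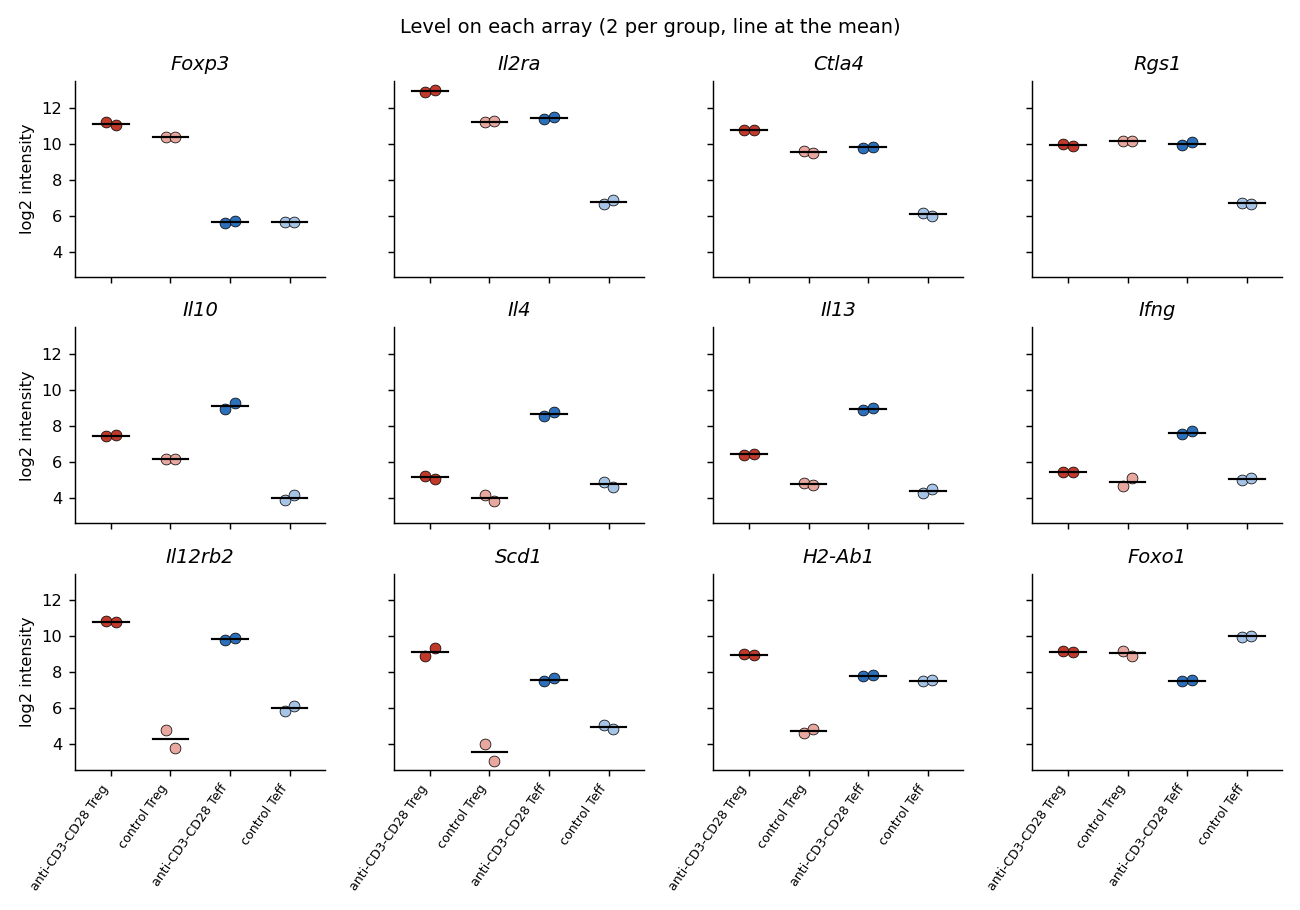
Log2 intensity of 12 genes on each array (points) of anti-CD3-CD28 Treg, control Treg, anti-CD3-CD28 Teff and control Teff cells, with the group mean as a line. Il2ra, Ctla4 and Rgs1 are low in control Teff cells alone, Il10, Il4, Il13 and Ifng are highest in anti-CD3-CD28 Teff cells, Il12rb2 and Scd1 are lowest in control Treg cells, and Foxo1 is lowest in anti-CD3-CD28 Teff cells.

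Of 25 effector cytokine genes, 7 rose and 3 fell in Treg cells, and 12 rose and 4 fell in Teff cells. Il4 and Il13, which encode the type 2 cytokines interleukin-4 and interleukin-13 and lie close together on chromosome 11, are shown with the 250 bases before their starts (RefSeq, GRCm38.p6). Both are on the minus strand, at chr11:53618666-53618915 and chr11:53634703-53634952, and capitals mark the NFAT core GGAAA on either strand (read as TTTCC on the other), the binding core of a factor family that T cell receptor signals activate.
Il4: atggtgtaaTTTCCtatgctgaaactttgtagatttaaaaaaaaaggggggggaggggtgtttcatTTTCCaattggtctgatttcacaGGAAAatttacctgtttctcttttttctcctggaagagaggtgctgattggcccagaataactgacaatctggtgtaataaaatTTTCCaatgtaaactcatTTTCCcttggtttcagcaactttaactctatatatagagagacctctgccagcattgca
Il13: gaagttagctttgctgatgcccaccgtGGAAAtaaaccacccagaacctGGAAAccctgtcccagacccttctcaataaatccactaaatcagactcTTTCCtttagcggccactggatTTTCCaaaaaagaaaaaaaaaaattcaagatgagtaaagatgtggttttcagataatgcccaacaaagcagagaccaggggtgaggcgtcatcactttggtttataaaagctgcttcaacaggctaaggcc
The Il4 window holds 5 copies of the core and the Il13 window 4. At least 1 copy stands in 55.6% of the 16990 windows of this length that matched a tested gene, and in 57.6% of the 66 windows of genes that rose in both cell types with the larger rise in Teff cells. A copy is a match of letters, not a shown binding site.

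Il4 read 5.24 and 5.07 in anti-CD3-CD28 Treg, against 4.15 and 3.85 in control Treg cells, and 8.53 and 8.76 in anti-CD3-CD28 Teff, against 4.88 and 4.64 in control Teff cells. Only the anti-CD3-CD28 Teff arrays stood high, and both control means lay below the background bound. The difference of responses was -2.73 ± 0.24 (adjusted p = 7.75e-05). Il13 read 6.41 and 6.47 in anti-CD3-CD28 Treg, against 4.86 and 4.70 in control Treg cells, and 8.88 and 9.02 in anti-CD3-CD28 Teff, against 4.30 and 4.50 in control Teff cells. It differed by -2.88 ± 0.21 (adjusted p = 2.08e-05).

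Il10, an anti-inflammatory cytokine that Treg cells are known for, rose in both cell types and more in Teff cells. It read 7.42 and 7.51 in anti-CD3-CD28 Treg, against 6.17 and 6.19 in control Treg cells, and 8.96 and 9.30 in anti-CD3-CD28 Teff, against 3.88 and 4.14 in control Teff cells. Fresh Treg cells were above fresh Teff cells by 2.17, and after the antibodies they were below by 1.67 (-1.67). The difference of responses was -3.84 ± 0.23 (adjusted p = 6.19e-06).

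Ifng, the type 1 cytokine interferon-gamma, rose in Teff cells only, at 5.43 and 5.45 in anti-CD3-CD28 Treg, against 4.67 and 5.13 in control Treg cells, and 7.54 and 7.74 in anti-CD3-CD28 Teff, against 4.98 and 5.10 in control Teff cells (difference -2.06 ± 0.25, adjusted p = 0.000431). Il2 stayed near the floor of the scale on all 8 arrays, between 2.56 and 3.46, with no call. Of the 25 genes 9 had a negative and 3 a positive difference (4 and 1 with 12 arrays, 7 and 2 after quantile normalization; median -0.60). The positive ones included Tgfb1, a cytokine of Treg cells, which rose in Treg and fell in Teff cells (1.72).

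Chemokines and their receptors showed 9 negative and 2 positive differences of 21 (3 and 1 with 12 arrays, 9 and 1 after quantile normalization). Ccl4, which attracts T cells and monocytes, read 4.88 and 5.57 in anti-CD3-CD28 Treg, against 5.53 and 5.10 in control Treg cells, and 6.50 and 6.68 in anti-CD3-CD28 Teff, against 4.62 and 5.14 in control Teff cells. The Treg groups overlapped and the Teff groups did not (-1.80 ± 0.36, adjusted p = 0.00516). Cxcl10, a ligand of CXCR3, differed by -1.47 ± 0.27 (adjusted p = 0.00326). Cxcr5, the receptor that guides T cells to B cell follicles, fell in both and more in Teff cells (1.45 ± 0.32, adjusted p = 0.0076), a call lost with the level trend removed by loess (0.96, adjusted p = 0.0762).

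Among 13 coinhibitory receptors and ectonucleotidases 6 differences were negative and 1 positive (3 and 0 with 12 arrays, 6 and 0 after quantile normalization). Beside Ctla4 they included the ectonucleotidase Entpd1, with -1.03 ± 0.23 (adjusted p = 0.00731), and Lag3, with -0.96. Tigit and Havcr2, both inhibitory receptors, had -1.11 ± 0.27 and -1.01 ± 0.28, and both calls were lost with 12 arrays (adjusted p = 0.0999 and 0.0991). The Havcr2 call also failed without the anti-CD3-CD28 Treg array B (adjusted p = 0.0882), the anti-CD3-CD28 Teff array B (0.0522), the Control Treg array 1 (0.0665) and the Control Teff array 1 (0.0894).

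Ifi204, an interferon-inducible DNA sensor of the PYHIN family, rose in both and more in Teff cells. It read 5.49 and 5.37 in anti-CD3-CD28 Treg, against 2.47 and 2.17 in control Treg cells, and 7.83 and 7.75 in anti-CD3-CD28 Teff, against 2.01 and 2.18 in control Teff cells. Both control groups lay at the floor, so each rise is a lower bound, and the difference was -2.59 ± 0.22 (adjusted p = 6.58e-05). Of the other interferon genes, Oas2 moved the other way (2.12 ± 0.20, adjusted p = 0.000112), as did Usp18 (1.44 ± 0.22, adjusted p = 0.00134). Of the 26 measured, 22 rose in Treg and 20 in Teff cells. The difference was positive at 9 and negative at 4 (3 and 2 with 12 arrays), but at 4 and 7 after quantile normalization, where the median was -0.19, against 0.32 on the deposited values.

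Promoter windows of the genes that rose in both cell types with the larger rise in Teff cells held the AP-1 letters TGANTCA in 12 of 66 (18.2%), against 6.5% of all 16990. Fos and Jun proteins bind only some forms of these letters, and the count took any middle base. The shares are therefore of the letters and not of AP-1 sites. A copy is a match of letters, not a shown binding site. Of these 12 genes only Anxa2, Gpr15 and Ctla2b kept their class with 12 arrays. The others, Gzmb, Havcr2 and Ppbp among them, were then shared or called in Teff cells with no call on the difference. The windows of Anxa2 and Gpr15, which had the most negative differences of those that kept the class, are shown. Capitals mark the NFAT core and the letters TGANTCA, with middle base G in Anxa2 and T in Gpr15. Anxa2, which encodes a membrane-binding annexin, is on the plus strand at chr9:69453433-69453682, and Gpr15, a receptor that guides T cells to the colon, on the minus strand at chr16:58718873-58719122.
Anxa2: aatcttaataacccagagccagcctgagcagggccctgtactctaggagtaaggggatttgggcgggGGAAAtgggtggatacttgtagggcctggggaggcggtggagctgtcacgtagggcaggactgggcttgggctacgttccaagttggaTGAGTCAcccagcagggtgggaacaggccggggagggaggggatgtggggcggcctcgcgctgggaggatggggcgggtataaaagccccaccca
Gpr15: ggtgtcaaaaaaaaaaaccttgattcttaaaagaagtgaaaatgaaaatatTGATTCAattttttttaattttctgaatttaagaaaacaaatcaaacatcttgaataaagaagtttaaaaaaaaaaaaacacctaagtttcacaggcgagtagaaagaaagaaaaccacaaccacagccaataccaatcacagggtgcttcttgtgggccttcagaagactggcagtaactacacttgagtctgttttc
The difference of responses was -1.41 for Anxa2 and -1.35 for Gpr15. In the other classes and directions the share with the AP-1 letters ran between 2.7% and 7.4%. The lowest was in genes that fell in Teff cells only (43 of 1612 windows) and the highest in genes that rose in Teff cells only (55 of 739). It was nearly as low in genes that rose in Treg cells only (31 of 1001, 3.1%). These shares are descriptions, with no test, and neither motif overlapped the other in the windows printed.

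The AP-1 subunit genes Jun and Fos fell in both cell types and further in Teff cells. Jun read 10.05 and 9.71 in anti-CD3-CD28 Treg, against 10.92 and 10.68 in control Treg cells, and 8.01 and 7.91 in anti-CD3-CD28 Teff, against 11.34 and 11.33 in control Teff cells. The 2 Teff groups were over 3 log2 units apart and the Treg groups under 1 unit apart on average (2.45 ± 0.23, adjusted p = 0.000112). Fos fell by 1.46 in Treg and by 3.03 in Teff cells (difference 1.56 ± 0.21, adjusted p = 0.000718). Junb, which encodes another subunit, was called in neither cell type. Of 23 immediate early and ERK feedback genes 10 differences were positive and none negative (4 and 0 with 12 arrays), but 2 were positive and 4 negative after quantile normalization. Of these 23, 12 fell and 4 rose in Treg cells, and 14 fell and 4 rose in Teff cells, against fresh cells.

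Genes with the larger rise in Treg cells included receptors and lipid enzymes. Il12rb2, the signalling chain of the interleukin-12 receptor, read 10.86 and 10.77 in anti-CD3-CD28 Treg, against 4.80 and 3.82 in control Treg cells, and 9.79 and 9.92 in anti-CD3-CD28 Teff, against 5.86 and 6.12 in control Teff cells. The order of the cell types was turned: Treg cells were 0.96 above Teff cells after the antibodies and 1.68 below them in control (-1.68). It rose by 6.51 in Treg and 3.86 in Teff cells, a difference of 2.65 ± 0.38 (adjusted p = 0.000912), and since control Treg cells were below the background bound the Treg rise is a lower bound.

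Scd1, the desaturase that makes monounsaturated fatty acids, read 8.91 and 9.36 in anti-CD3-CD28 Treg, against 4.0 and 3.09 in control Treg cells, and 7.51 and 7.69 in anti-CD3-CD28 Teff, against 5.06 and 4.83 in control Teff cells. It was highest in anti-CD3-CD28 Treg and lowest in control Treg cells, which lay below the background bound, so the Treg rise is a lower bound. The difference was 2.93 ± 0.39 (adjusted p = 0.000624). The fatty acid desaturase genes Fads1 (2.25 ± 0.24, adjusted p = 0.000226) and Fads2 (1.81 ± 0.22, adjusted p = 0.00043) and the elongase Elovl6 (2.26 ± 0.25, adjusted p = 0.000297) moved alike, and the fatty acid synthase Fasn had 1.51. Of 19 genes of cholesterol and fatty acid synthesis, all rose in Treg and 12 rose in Teff cells, and the difference was positive at 10 and negative at none (6 and 0 with 12 arrays and after quantile normalization). Early enzymes of the cholesterol branch were shared: Hmgcs1, Fdps and Sqle rose in both with differences of 0.60, 0.25 and 0.60 and no call.

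Cyp11a1, which cuts the cholesterol side chain to make pregnenolone, read 9.65 and 9.48 in anti-CD3-CD28 Treg, against 3.93 and 4.22 in control Treg cells, and 7.33 and 7.16 in anti-CD3-CD28 Teff, against 4.34 and 4.08 in control Teff cells. The control groups overlapped below the background bound, and the treated groups were 2.32 apart (difference 2.45 ± 0.24, adjusted p = 0.000134). Its other row on the array gave 0.04. Enah, an actin regulator, had 2.66 ± 0.25 (adjusted p = 1e-04), and the metallothionein Mt2, a metal-binding protein, 3.10 ± 0.33 (adjusted p = 0.000235).

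Glycolysis and hypoxia genes rose in both cell types, at 20 of 22 in Treg and 17 of 22 in Teff cells, and the rise was larger in Treg cells at 9, with no negative call (5 and 0 with 12 arrays, 6 and 1 after quantile normalization). Slc2a1, the glucose transporter GLUT1, read 11.07 and 10.84 in anti-CD3-CD28 Treg, against 7.97 and 7.68 in control Treg cells, and 9.62 and 9.77 in anti-CD3-CD28 Teff, against 8.13 and 8.28 in control Teff cells. Treg cells thus read highest after the antibodies and lowest when fresh (1.64 ± 0.23, adjusted p = 0.000887), while the other row of the gene gave -0.37. Gapdh, a glycolytic enzyme, rose in Treg cells only (1.53 ± 0.25, adjusted p = 0.00185).

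Proliferation genes rose in both. All 19 mitosis genes rose in Treg and in Teff cells, and of 22 DNA replication genes 21 and 19 rose. The difference was positive at 8 and negative at 2 mitosis genes (3 and 0 with 12 arrays) and positive at 7 replication genes (4 with 12 arrays), but after quantile normalization at 2 and 2 and at 1 and 1, with medians of 0.01 and 0.00. The mitotic kinase gene Plk1 read 9.67 and 9.49 in anti-CD3-CD28 Treg, against 6.80 and 6.85 in control Treg cells, and 7.68 and 8.00 in anti-CD3-CD28 Teff, against 6.86 and 6.92 in control Teff cells. The control groups were alike and the treated groups were 1.74 apart, with a difference of 1.81 ± 0.22 (adjusted p = 0.000448) that also passed after quantile normalization (1.30). Aurkb, another mitotic kinase, had 1.44 ± 0.21 (adjusted p = 0.00103).

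Mki67, the proliferation marker, rose by 2.29 in Treg and 1.59 in Teff cells. Its difference of 0.70 (adjusted p = 0.0231) lost its call with 12 arrays (adjusted p = 0.436), after quantile normalization (0.0816), with the level trend removed by loess, where it was 0.02 (adjusted p = 0.964), and without any of 5 single arrays (0.0593 to 0.078). Cdk1 and Birc5, both of mitosis, went the other way (-0.69 and -0.96), and both calls were lost with 12 arrays (adjusted p = 0.531 and 0.194). Of the G1 cell cycle genes Ccnd3, cyclin D3, rose in Treg cells only (1.74 ± 0.24, adjusted p = 0.000731), and Cdk4 rose in Treg and fell in Teff cells (1.57 ± 0.20, adjusted p = 0.000526).

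Some genes rose in Treg cells only. H2-Ab1, an MHC class II beta chain, had the most positive difference of the genes named. It read 9.02 and 8.94 in anti-CD3-CD28 Treg, against 4.65 and 4.85 in control Treg cells, and 7.79 and 7.85 in anti-CD3-CD28 Teff, against 7.53 and 7.56 in control Teff cells (3.96 ± 0.20, adjusted p = 2.3e-06). H2-DMb2, another gene of the class II pathway, moved with it (2.31 ± 0.34, adjusted p = 0.00104). H2-Aa and H2-Eb1, the other class II chains measured, had 0.11 and -0.17. Of the 9 pathway genes 2 were called.

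B cells hold class II molecules. Of 13 B cell markers 6 had a positive and none a negative difference (2 and 0 with 12 arrays), and 7 lay below the background bound in all 4 groups. The mean over the list was 5.63 and 5.65 on the control Teff arrays, and it was between 4.18 and 4.68 on the other 6 arrays. Cd79a and Ms4a1, which define B cells, read 7.25 and 7.26, and 5.69 and 5.65, in control Teff cells, and between 4.73 and 5.47, and 3.18 and 4.40, on the other arrays. In control Teff cells, where Cd79a and Ms4a1 were highest, H2-Ab1 was well above the background bound. H2-Ab1 was lowest in control Treg and highest in anti-CD3-CD28 Treg cells. In those groups Cd79a and Ms4a1 were at or near the bound. The part of B cells in the H2-Ab1 values was not tested.

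Gpr33, a chemoattractant-like receptor, read 7.57 and 7.56 in anti-CD3-CD28 Treg, against 4.17 and 4.31 in control Treg cells, and 4.34 and 4.75 in anti-CD3-CD28 Teff, against 4.36 and 4.32 in control Teff cells. It stood above background in anti-CD3-CD28 Treg cells alone (3.13 ± 0.23, adjusted p = 2.48e-05). Cnih2 (2.63 ± 0.28, adjusted p = 0.000228) and Trp53i11 (2.66 ± 0.28, adjusted p = 0.000216) had the same shape. Atp8b4, a phospholipid flippase, rose in Treg cells only but stayed below Teff cells (2.52 ± 0.25, adjusted p = 0.000153).

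Signalling genes of the cytokine response were among the Treg only rises. Socs3, a feedback inhibitor of cytokine signalling, differed by 1.75 ± 0.27 (adjusted p = 0.00123), though its other row gave 0.29. Stat3, a transcription factor of the interleukin-6 and interleukin-10 receptors, had 1.68 ± 0.19 (adjusted p = 0.000342), and Stat5a, which acts below the interleukin-2 receptor, rose in Treg and fell in Teff cells (1.61 ± 0.21, adjusted p = 0.000603). Il4ra, the interleukin-4 receptor chain, rose more in Treg cells (1.54 ± 0.21, adjusted p = 0.000756). Apart from Il2ra, no gene of the interleukin-2 receptor, STAT5 and SOCS list had a negative call. After quantile normalization there were 4 positive and 3 negative calls among its 14 members.

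Gsta4, a glutathione S-transferase, fell in Treg cells only. It read 5.48 and 5.51 in anti-CD3-CD28 Treg, against 8.71 and 8.76 in control Treg cells, and 5.26 and 5.07 in anti-CD3-CD28 Teff, against 5.44 and 5.23 in control Teff cells. Control Treg cells stood apart from the other 3 groups (-3.07 ± 0.21, adjusted p = 1.35e-05). Rhob, a small GTPase, fell in both and more in Treg cells (-1.11 ± 0.26, adjusted p = 0.0101).

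The most numerous class was genes that fell in Teff cells only, and genes of T cell quiescence and recirculation stood in it. Foxo1, a transcription factor of resting T cells, read 9.16 and 9.13 in anti-CD3-CD28 Treg, against 9.20 and 8.91 in control Treg cells, and 7.49 and 7.57 in anti-CD3-CD28 Teff, against 9.98 and 10.01 in control Teff cells. The Treg groups overlapped and the Teff groups were over 2 log2 units apart (2.55 ± 0.21, adjusted p = 5.07e-05), while the other row of the gene, which was dimmer, gave 0.07. S1pr1, the receptor by which T cells leave lymph nodes, read 9.86 and 9.99 in anti-CD3-CD28 Treg, against 9.98 and 9.89 in control Treg cells, and 8.78 and 8.54 in anti-CD3-CD28 Teff, against 10.89 and 10.97 in control Teff cells (2.26 ± 0.21, adjusted p = 0.000104).

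Of 19 quiescence and recirculation genes 15 had a positive and 1 a negative difference (12 and 0 with 12 arrays, 11 and 1 after quantile normalization), with a median of 1.34 (0.88 after quantile normalization). In Teff cells 18 of 19 fell and none rose, and in Treg cells 9 fell and 4 rose. Actn1, an actin crosslinker, fell in both (2.33 ± 0.21, adjusted p = 9.09e-05). Satb1, a chromatin organiser of T cell development, rose in Treg and fell in Teff cells, at 10.42 and 10.61 in anti-CD3-CD28 Treg, against 9.08 and 9.17 in control Treg cells, and 9.90 and 10.17 in anti-CD3-CD28 Teff, against 10.68 and 10.63 in control Teff cells (2.01 ± 0.22, adjusted p = 0.000253). Il7r, the interleukin-7 receptor chain, did the same (1.60). The negative one was Btg2, an antiproliferative gene, which fell more in Treg cells (-0.72), a call lost with 12 arrays (adjusted p = 0.153).

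Genes of the T cell receptor complex and surface showed the same direction, with 10 of 13 positive and 1 negative (8 and 0 with 12 arrays, 8 and 1 after quantile normalization; median 1.38, and 1.02 after quantile normalization). Cd4, the coreceptor of these cells, read 10.84 and 10.48 in anti-CD3-CD28 Treg, against 10.61 and 10.31 in control Treg cells, and 9.86 and 9.97 in anti-CD3-CD28 Teff, against 11.84 and 11.93 in control Teff cells (2.17 ± 0.24, adjusted p = 0.000309). Cd5, an inhibitory surface receptor, and Fyn, a Src family kinase, also fell in Teff cells only, with 1.53 ± 0.21 and 1.66 ± 0.20 (adjusted p = 0.000715 and 0.000413). Lcp2, which encodes the adaptor SLP-76, rose in Treg and fell in Teff cells (1.77 ± 0.20, adjusted p = 0.000288). Cd3d, a chain of the receptor complex, did the reverse (-1.87 ± 0.19, adjusted p = 0.000191), a call lost with 12 arrays (0.0627).

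Cd27, a costimulatory receptor of the TNF receptor family, read 10.28 and 10.03 in anti-CD3-CD28 Treg, against 10.33 and 9.98 in control Treg cells, and 7.45 and 7.99 in anti-CD3-CD28 Teff, against 10.40 and 10.55 in control Teff cells. Anti-CD3-CD28 Teff cells stood apart from the other 3 groups (2.75 ± 0.29, adjusted p = 0.000216). Rela, the p65 subunit of NF-kappaB, and Rel fell in Teff cells only (2.19 ± 0.24 and 1.43 ± 0.26, adjusted p = 0.000241 and 0.00295), and Bcl3, an atypical inhibitor protein of that family, rose in Treg cells only (1.77 ± 0.29, adjusted p = 0.00175). Over the 16 NF-kappaB genes the median turned sign, at 0.50 on the deposited values and -0.06 after quantile normalization, with 7 positive and 0 negative calls and 3 and 1 after it.

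Other genes that fell in Teff cells only were Ehd3, which acts in endocytic recycling (3.11 ± 0.24, adjusted p = 3.13e-05), the ceramide synthase Cers6 (3.00 ± 0.23, adjusted p = 2.85e-05), Gatc (3.07 ± 0.35, adjusted p = 0.000354), Uprt (2.97 ± 0.21, adjusted p = 1.87e-05) and Ctse, the protease cathepsin E (2.89 ± 0.27, adjusted p = 0.000113). Ehd3 read 6.61 and 6.26 in anti-CD3-CD28 Treg, against 6.77 and 6.75 in control Treg cells, and 6.54 and 6.22 in anti-CD3-CD28 Teff, against 9.79 and 9.84 in control Teff cells. Only control Teff cells were high.

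Some genes of other cell types fell in Teff cells as well. Jchain, which joins antibody chains, read 3.50 and 3.49 in anti-CD3-CD28 Treg, against 5.52 and 5.41 in control Treg cells, and 4.64 and 4.96 in anti-CD3-CD28 Teff, against 9.68 and 9.65 in control Teff cells (2.89 ± 0.22, adjusted p = 2.48e-05). All 20 immunoglobulin segments measured, a family put together after the values were seen, had a positive difference and fell in Teff cells, with a median level of 8.48 in control Teff cells and between 3.49 and 4.58 in the other groups. Of the 14 neutrophil markers 4 were positive and none negative (the same counts with 12 arrays). Of these 4, 2 fell in Teff cells only, 1 rose in Treg cells only, and 1 rose in Treg and fell in Teff cells. Among them were the granule protease Elane (2.76 ± 0.22, adjusted p = 4.21e-05) and myeloperoxidase Mpo (2.65 ± 0.31, adjusted p = 0.000399). Both read 7.62 to 7.78 in control Teff cells and at most 5.09 on the other arrays. The neutrophil list mean was 5.09 and 5.04 on the control Teff arrays and between 4.22 and 4.70 on the others. Other marker lists were read against the 20.3% positive and 11.3% negative over all genes. Of 10 basophil and mast cell markers 2 were positive and none negative, about the share over all genes, with a list mean of 4.51 on both control Teff arrays and between 3.69 and 4.25 on the others. Of 6 erythroid and platelet markers 3 were positive and 2 negative (2 and 0 with 12 arrays), but the list mean was 6.37 and 6.47 in anti-CD3-CD28 Teff and 6.36 and 6.37 in control Teff cells, and lower in both Treg groups (4.40 to 5.13). Of 9 CD8 T and NK cell markers 1 was positive and none negative, and their mean was 5.27 and 5.36 in anti-CD3-CD28 Teff and 5.30 and 5.31 in control Teff cells. Of 13 macrophage and dendritic cell markers 1 was positive and 3 negative, with list means between 4.25 and 4.70 on all 8 arrays. The part of such cells in the Teff falls was not tested.

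Genes that rose in Treg and fell in Teff cells were led by Nedd4l, an E3 ubiquitin ligase. It read 8.03 and 8.22 in anti-CD3-CD28 Treg, against 6.90 and 6.39 in control Treg cells, and 5.68 and 6.37 in anti-CD3-CD28 Teff, against 7.55 and 7.55 in control Teff cells (3.01 ± 0.34, adjusted p = 0.000288). Neither pair of groups overlapped, and the order of the cell types was turned. Pdlim1, a cytoskeletal adaptor, had 2.97 ± 0.23 (adjusted p = 3.41e-05), Dexi 2.81 ± 0.24 (adjusted p = 6.57e-05), Fam102a 2.79 ± 0.20 (adjusted p = 1.63e-05), and Kmt5a, which monomethylates histone H4, 2.79 ± 0.24 (adjusted p = 6.22e-05). Il17rb, a chain of the interleukin-25 receptor, had 2.96 ± 0.27 (adjusted p = 9.09e-05), and with 12 arrays it was called in Treg cells only.

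The reverse, a fall in Treg and a rise in Teff cells, was seen at many small noncoding RNA genes. Small nucleolar and Cajal body RNAs guide the chemical modification of ribosomal and spliceosomal RNA, and most lie inside introns of host genes. Of 87 such genes, a family put together after the values were seen, 81 had a negative and none a positive difference (81 with 12 arrays, 76 after quantile normalization), with a median of -3.42. In Treg cells 80 fell and none rose, and in Teff cells 66 rose and 1 fell. The median level was 9.36 in anti-CD3-CD28 Treg, 11.84 in control Treg, 12.34 in anti-CD3-CD28 Teff and 10.87 in control Teff cells, and 64 of the 356 genes of this class belonged to the family, while 206 were protein-coding. Both Y RNA genes did the same, Rny3 with -6.37 ± 0.23 (adjusted p = 5.71e-07) and Rny1 with -4.95 ± 0.21 (adjusted p = 1.11e-06).

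**Figure D4:**
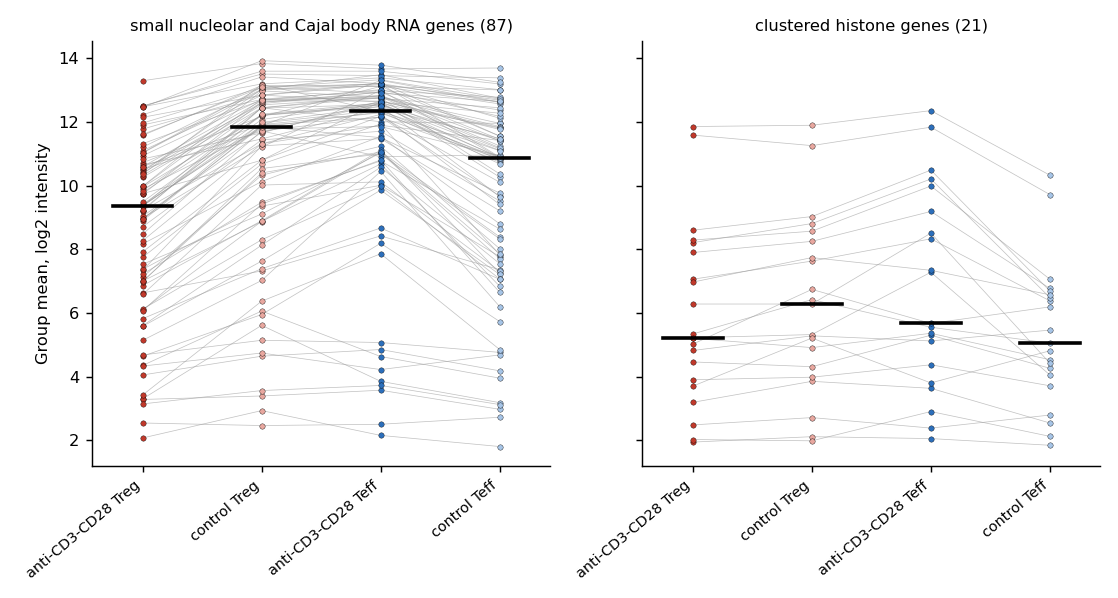
Group mean log2 intensity of 87 small nucleolar and Cajal body RNA genes (left) and 21 clustered histone genes (right) in anti-CD3-CD28 Treg, control Treg, anti-CD3-CD28 Teff and control Teff cells; thin lines join a gene and black bars mark medians. The small RNA median is lowest in anti-CD3-CD28 Treg cells (9.36) and highest in anti-CD3-CD28 Teff cells (12.34).

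The named genes with the most negative differences were Med24 (-6.70 ± 0.26, adjusted p = 7.53e-07), a Mediator subunit, Rps20 (-6.64 ± 0.20, adjusted p = 3.17e-07), a ribosomal protein, Ptcd3 (-5.70 ± 0.27, adjusted p = 1.76e-06), of the mitochondrial ribosome, and Wdyhv1 (-5.43 ± 0.30, adjusted p = 3.72e-06). Each holds 1 small nucleolar RNA gene inside its span in the gene table (Snord94 in Ptcd3), and Snhg17 (-5.12 ± 0.29) holds 2. Rps18, another ribosomal protein gene among the 10 most negative, has none inside its span there. The brightest row of each gene was used, and other rows gave 0.64 for Med24, -1.11 for Rps20, 0.38 for Ptcd3 and 0.38 for Wdyhv1. The other row of Rps20 thus had the same direction and a far smaller size, and those of Med24, Ptcd3 and Wdyhv1 were positive. The differences of these genes hold for the row used and are not shown for the protein-coding transcript. Med24 read 6.81 and 6.44 in anti-CD3-CD28 Treg, against 9.67 and 9.95 in control Treg cells, and 10.59 and 10.24 in anti-CD3-CD28 Teff, against 6.89 and 6.92 in control Teff cells. Over the 393 genes with such an RNA gene inside, 120 differences were positive and 63 negative, with a median of 0.10.

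Clustered histone genes, put together after the values were seen, rose in Teff cells at 14 of 21 and fell at 2, and in Treg cells 4 fell and none rose. The difference was negative at 12 and positive at none (9 and 0 with 12 arrays, 12 and 0 after quantile normalization). H2bc3, an H2B gene, read 8.70 and 8.50 in anti-CD3-CD28 Treg, against 9.12 and 8.94 in control Treg cells, and 10.49 and 10.49 in anti-CD3-CD28 Teff, against 6.70 and 6.69 in control Teff cells (-4.23 ± 0.21, adjusted p = 1.87e-06). H2bc12 had -4.33 ± 0.40 (adjusted p = 9.26e-05) and H2bc9 -4.09 ± 0.42 (adjusted p = 0.000184). Probe sets of such near-identical genes can share signal.

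Genes of 2 further groups leaned the same way. Of 62 cytosolic ribosomal protein genes 26 were negative and 4 positive (9 and 1 with 12 arrays, 27 and 5 after quantile normalization), and of the 41 with no small nucleolar RNA gene inside 19 were negative and 2 positive. Of 17 oxidative phosphorylation genes 7 were negative and 3 positive (0 and 1 with 12 arrays, 9 and 1 after quantile normalization). Cox7b, a subunit of cytochrome c oxidase, read 8.90 and 8.26 in anti-CD3-CD28 Treg, against 9.97 and 9.57 in control Treg cells, and 10.69 and 10.12 in anti-CD3-CD28 Teff, against 8.43 and 8.34 in control Teff cells. The difference of -3.21 ± 0.36 (adjusted p = 0.000278) was not called with 12 arrays (0.0695), and the other row of the gene gave 0.17. Sec61g, a subunit of the translocon of the endoplasmic reticulum, rose in Teff cells only (-3.42 ± 0.20, adjusted p = 4.64e-06).

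Some shared changes were large. Gzma, the protease granzyme A, read 11.47 and 11.33 in anti-CD3-CD28 Treg, against 4.15 and 4.57 in control Treg cells, and 11.30 and 11.22 in anti-CD3-CD28 Teff, against 4.74 and 5.00 in control Teff cells. It rose by 7.04 in Treg and 6.39 in Teff cells, and the difference was 0.65 ± 0.25 (adjusted p = 0.0753), which passed after quantile normalization (0.92, adjusted p = 0.0295), with dim genes left out (0.0353), with trend and robust shrinkage (0.0304) and without the Control Treg array B (0.0325), and was 0.04 with the level trend removed by loess (0.934). Gzmb, granzyme B, rose by 5.77 and 6.60, and its difference of -0.83 ± 0.21 (adjusted p = 0.0154) lost its call with 12 arrays (0.157), after quantile normalization (0.121) and without the Control Teff array B (0.0742) or the anti-CD3-CD28 Treg array 1 (0.0603).

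The hypoxia genes Bnip3, of mitochondrial turnover, and Egln3, a prolyl hydroxylase, rose by 4.28 and 4.81 in Treg and by 4.03 and 3.84 in Teff cells. The Egln3 difference of 0.97 (adjusted p = 0.0849) was called with dim genes left out (0.0462), with trend and robust shrinkage (0.0409) and without the Control Treg array 1, where it was 1.49 (adjusted p = 0.00295). Without the Control Treg array B it was 0.45 (adjusted p = 0.184). Hspa1a, an inducible HSP70 chaperone, read 3.37 and 3.39 in anti-CD3-CD28 Treg, against 10.85 and 10.91 in control Treg cells, and 3.78 and 3.51 in anti-CD3-CD28 Teff, against 11.60 and 11.61 in control Teff cells. It was high in fresh cells of both types and at the floor after culture, so the falls of 7.50 and 7.96 are lower bounds. Their difference of 0.46 (adjusted p = 0.117) was called after quantile normalization alone (0.78, adjusted p = 0.0199). Dtx1, a regulator of Notch signalling, fell by 2.52 in Treg and by 3.12 in Teff cells. Its difference of 0.61 (adjusted p = 0.0524) was called with dim genes left out (0.0203), with trend and robust shrinkage (0.0193), with 10 arrays (0.0484) and without the anti-CD3-CD28 Teff array 1 (0.0333), and was 0.12 after quantile normalization (adjusted p = 0.756).

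The Y-linked genes Kdm5d, Uty and Eif2s3y read 2.57 to 3.86 on the 4 anti-CD3-CD28 arrays and 5.84 to 7.07 on the 4 control arrays, in Treg and Teff cells alike, while Xist read 10.19 to 11.16 and 10.08 to 10.78. The labels give no sex of the mice, and the sex of the mice and the treatment cannot be told apart in either response. Kdm5d and Eif2s3y were shared falls, and Uty had a difference of -0.70 (adjusted p = 0.0342) that was not called with 12 arrays (0.446), after quantile normalization (0.0652) or without 7 of the 8 arrays in turn.

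For the remaining lists the counts after quantile normalization stand in brackets. Over all genes 20.3% of differences were called positive and 11.3% negative (9.80% and 8.11% after quantile normalization). In the brightest bin of 4436 genes 2337 were positive and 485 negative (970 and 757). A count near these shares, here or for the lists above, is no result about the list. Costimulatory and TNF receptor genes had 8 positive and 1 negative differences of 15 (4 and 1 after quantile normalization), T helper regulators 9 and 1 of 22 (6 and 3), cell cycle inhibitors and G1 cyclins 6 and 1 of 14 (4 and 1), and Notch pathway genes 8 and 2 of 22 (4 and 1). Among the last, Numb, an inhibitor of Notch, had 1.60 ± 0.23 (adjusted p = 0.000887) and Jag1, a ligand, 1.10 ± 0.23 (adjusted p = 0.00594). Amino acid and stress response genes had 9 and 1 of 23 (1 and 3), ribosome biogenesis genes 7 and 2 of 17 (3 and 2), BCL2 family and death receptor genes 6 and 3 of 16 (2 and 2), heat shock genes 4 and 1 of 11 (3 and 2), and granzyme and cytotoxic granule genes 3 and 4 of 14 (2 and 3). The medians of the stress response, ribosome biogenesis, BCL2 family and granzyme lists changed sign after quantile normalization.

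**Figure D5:**
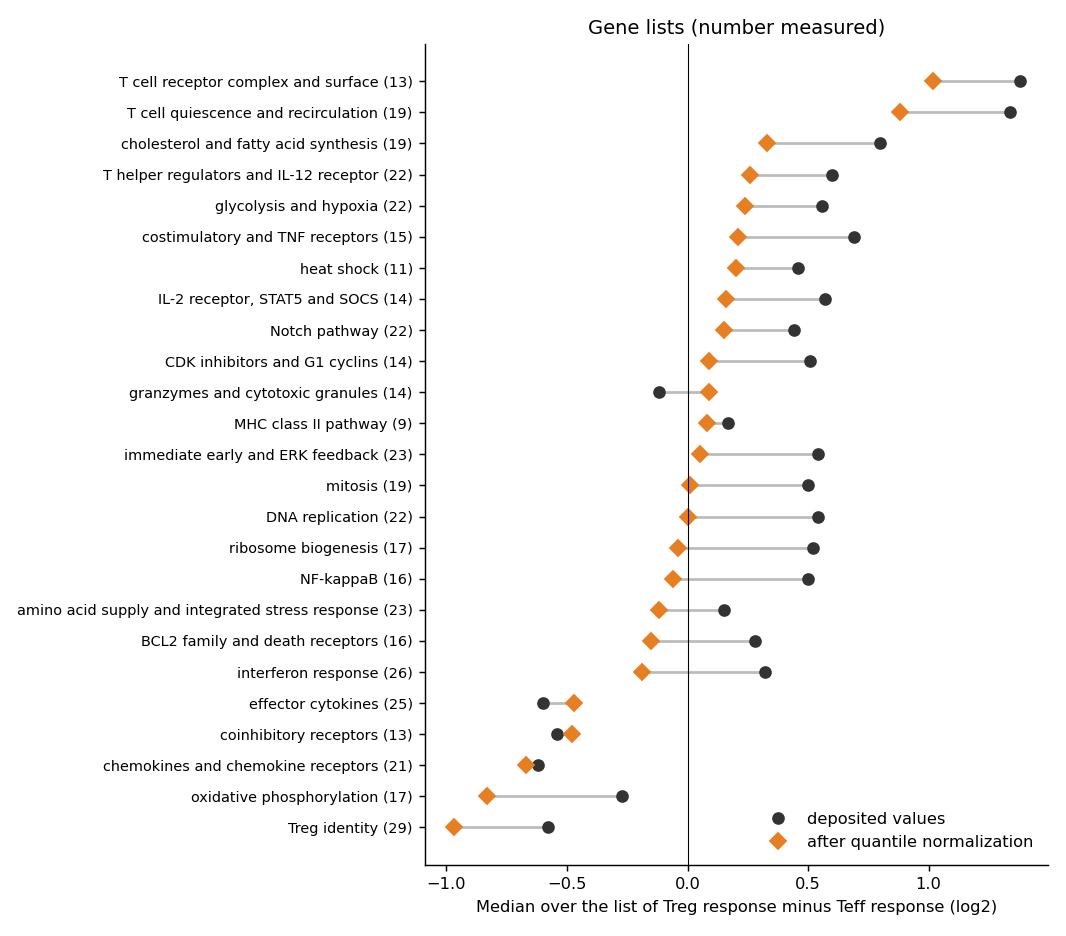
Median difference of responses (Treg response minus Teff response, log2) over each gene list, with the number of members measured in brackets, on the deposited values (circles) and after quantile normalization (diamonds). The T cell receptor and quiescence lists lie highest on both scales (1.38 and 1.34 as deposited), and Treg identity, oxidative phosphorylation, chemokines, effector cytokines and coinhibitory receptors lie below 0 on both.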

How the data were processed

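The values are log2 intensities from Affymetrix Mouse Gene 2.0 ST arrays, 1 per sample, which the authors made with RMA (version not given in the sources used here), per the submitters' processing notes, and deposited as 1 table of 41345 rows. They were used as deposited. The 23521 rows with 1 gene symbol in the array annotation were kept, and of several rows of a gene (1082 genes) the brightest one (by its mean over all 12 arrays), which gave 22180 genes. Members and gene lists were chosen with earlier results of these data known.

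limma 3.58.1 in R 4.3.3 fitted 1 mean per group over 8 arrays (4 residual degrees of freedom) with eBayes, two-sided, with Benjamini-Hochberg adjustment over all genes. The procedure was tested on simulated data. Named genes were the 10 most positive and most negative differences, the 5 largest per class and direction, up to 4 per list, and 10 fixed genes. Other members are named as list examples after their values were seen. Predicted genes, receptor segments and small RNAs with family names, apart from the Y RNAs Rny1 and Rny3, were not named with values. Symbols and promoters are from RefSeq (GRCm38.p6); the promoter table had windows for 16990 genes. No source used here gives the array's own build. Alternatives were all 12 arrays, 10 arrays, a replicate block, dim genes left out, trend and robust shrinkage, quantile normalization, loess on level, array weights, other uses of rows, a change of at least 1 and each array left out.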

Additional observations from a re-analysis of the deposited data

Results flagged for a closer look

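Treg and Teff cells responded differently to anti-CD3-CD28 at 7022 genes by the test of the difference itself. Over all genes 1033 of 22180 (4.66%) moved in opposite directions in the 2 cell types, with both responses and their difference called. Of the 173 named genes 36 did so. That count follows from the naming rule, which picks large differences and genes of this class, and is no result about how common the class is. Of those that kept this class with 12 arrays, the 5 with the largest difference in each direction follow. The differences (Treg response minus Teff response, log2) were 3.01 for Nedd4l, 2.97 for Pdlim1, 2.81 for Dexi, 2.79 for Fam102a and 2.79 for Kmt5a, which rose in Treg and fell in Teff cells. They were -6.70 for Med24, -6.64 for Rps20, -6.37 for Rny3, -5.70 for Ptcd3 and -5.43 for Wdyhv1, which fell in Treg and rose in Teff cells. Each value is of the brightest row of the gene. Other rows of Med24, Ptcd3 and Wdyhv1 gave positive differences, and that of Rps20 a far smaller negative one. The opposite responses are therefore not shown for the protein-coding transcripts of these genes.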

How the results depend on the processing

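With all 12 arrays, 2904 genes were called in the difference of responses, 2230 in the Treg response, 3369 in the Teff response, 2645 in the gap after anti-CD3-CD28 and 853 in the control gap. The classes then held 680 (Treg only), 1394 (Teff only), 78 (both, larger in Treg), 56 (both, larger in Teff), 254 (opposite) and 548 (shared). Quantile normalization gave 3972 genes in the difference and 3881 in the anti-CD3-CD28 gap, with 906, 1811, 117 and 628 in Treg only, Teff only, both larger in Treg, and opposite, and loess on level gave 3994, 3951, 959, 1784, 127 and 635. With a change of at least 1 the 5 comparisons gave 3917, 1663, 2216, 1586 and 840 and the 6 classes 643, 1179, 59, 64, 130 and 377. With dim genes left out, 292 genes were in both, larger in Teff. Leaving out 1 array at a time gave 4449 to 7894, 2718 to 5632, 3912 to 6882, 3280 to 7047 and 1049 to 4000 in the 5 comparisons, and 887 to 1949, 1690 to 3318, 106 to 233, 87 to 207, 444 to 1286 and 709 to 947 in the 6 classes. Of the 162 named genes called, 117 kept call and direction in every alternative that held them (109 in all 19, and 8 that were left out with dim genes), and 45 lost the call in at least 1. Of the other named genes 6 gained one. Among the 162, the difference was over 1.5 times smaller at 28 after quantile normalization and at 47 with loess, and larger at 1 and 3. Hspa8 turned to -1.59 with the mean of all its rows, which include rows of opposite sign. Correlations of replicate differences between groups ran between -0.0512 and 0.0508. They cannot show whether arrays with the same label shared a culture, an animal or a batch. The replicate block (6803 genes) changed no call of a named gene. The cause of the other changes was not tested.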
